A study of Homo sapiens with 6 samples.

Results

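The genes described here are 10 genes of ferritin and cellular iron handling: FTL, FTH1, TFRC, SLC40A1, SLC11A2, IREB2, ACO1, NCOA4, FBXL5 and GPX4. The set was chosen by the lower FTL counts of knockout libraries in earlier results of these data, and the other genes were added for their roles. All were taken by name from a table of 60662 genes measured by stranded, paired-end mRNA sequencing, and each name matched 1 row. The samples were 3 libraries of TC-71 with XG knockout and 3 libraries of wildtype TC-71. TC-71 is an established human Ewing sarcoma line, and both groups were untreated cells grown in serum-supplemented medium. XG encodes the glycoprotein of the Xg blood group. Whether the knockout line is clonal or pooled is not given in the labels, and neither is the origin of replicates in separate cultures. The p-values therefore cover the variation among these 6 libraries, possibly technical, and no more. All 10 genes passed the filter on low counts. Because its fall was known beforehand, FTL is described by its values and carries no test. The other genes are read from a fit over all 14425 tested genes.

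Cells take up transferrin-bound iron through the transferrin receptor and move it out of endosomes through a divalent metal transporter. Iron not in use is stored in ferritin, a cage built of light chains (FTL) and heavy chains (FTH1), and leaves the cell through ferroportin. The iron regulatory proteins IRP1 (ACO1) and IRP2 (IREB2) bind stem-loops called iron-responsive elements in the untranslated ends of mRNAs when iron is scarce. Bound at the start of a ferritin or ferroportin mRNA they block translation, and bound at the end of the transferrin receptor mRNA they protect it from decay. A gene count therefore reports transcript amount and does not show ferritin translation.

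The elements are shown because they separate the genes regulated mainly through translation from those regulated through mRNA decay. They were found in GENCODE 29 transcripts (GRCh38), reading the transcript strand only, as C, 5 bases, CAGTGN and 5 bases whose arms can pair. Each is printed 5′ to 3′ with the 6-base loop in capitals.
FTL: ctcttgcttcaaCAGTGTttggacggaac
FTH1: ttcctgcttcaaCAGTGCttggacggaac
SLC40A1: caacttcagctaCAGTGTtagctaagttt
TFRC: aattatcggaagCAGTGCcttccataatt
TFRC: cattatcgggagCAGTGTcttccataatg
TFRC: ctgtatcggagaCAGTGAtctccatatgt
TFRC: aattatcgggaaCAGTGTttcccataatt
SLC11A2: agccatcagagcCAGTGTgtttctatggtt

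The FTL, FTH1 and SLC40A1 elements lay in the 5′ untranslated region, at chr19:48965335-48965363 (plus strand), chr11:61967574-61967602 and chr2:189580661-189580689 (both minus strand). The FTL and FTH1 elements were identical at 26 of 29 bases. The 4 TFRC matches lay in the 3′ untranslated region between chr3:196050463 and chr3:196051007 (minus strand). The SLC11A2 match, also in the 3′ untranslated region (chr12:50988268-50988297, minus strand), needed 1 extra unpaired base in the stem. IREB2 held a match with 1 extra base as well, giving 6 of 10 genes with a match in any coding transcript. Among the longest coding transcripts of 19684 genes, 1.32% held the letters without an extra base and 3.78% with up to 1. A match is a description of letters and was not tested as a binding site.

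The libraries held 24934343 to 31214099 counted fragments in knockout and 22557187 to 27765294 in wildtype. XG, the targeted gene, stood at 29.6 ± 0.642 CPM (the count relative to the TMM-scaled library size) in knockout and 45.7 ± 1.37 CPM in wildtype libraries (SD, n = 3 each). Of all genes tested, 196 (1.36%) passed an edgeR adjusted p of 0.05, 132 of them lower (0.915%) and 64 higher (0.444%). After removal of each library's GC trend 339 passed, 182 lower and 157 higher. The count was 1851 without knockout replicate 3, and 67, 41, 24, 26 and 18 without knockout replicate 1 or 2 or wildtype replicate 1, 2 or 3, in that order. Knockout replicates 1 and 2 differed from knockout replicate 3 and from wildtype in the level of GC-rich genes. For 1987 genes with a transcript GC content of at least 60%, the median log2 ratio to the wildtype mean was -0.18, -0.136 and 0.0152 in knockout replicates 1, 2 and 3, and between -0.0125 and 0.007 in the wildtype libraries. All 8 Ewing sarcoma markers were expressed at a tested level, with summed CPM of 2215 to 2244 in knockout and 2317 to 2354 in wildtype libraries. Of these markers CD99 was called, at a log2 difference of -0.12 (edgeR adjusted p = 0.0302), and it was not called after GC correction (-0.067, adjusted p = 0.144). Summed levels of 9 erythroid, 8 macrophage and 5 hepatocyte markers stayed below 1 CPM in each library, with HBB, CD163 and TTR at 0. Summed levels of 6 fibroblast markers were 40.5 to 48.3 CPM in knockout and 41.9 to 45.4 CPM in wildtype libraries.

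Ferritin light chain mRNA was lower in all 3 knockout libraries. FTL (ENSG00000087086.15, chromosome 19, 48965309 to 48966879, plus strand) had 1496, 1409 and 1513 CPM in knockout replicates 1, 2 and 3, against 1626, 1698 and 1682 CPM in wildtype replicates 1, 2 and 3. Every knockout library lay below every wildtype library, and the lowest was knockout replicate 2. Knockout libraries averaged 88.3% of the wildtype level, and the fitted difference was -0.18 on the log2 scale (SE 0.0285). In such bulk samples, fewer expressing cells and less RNA per cell cannot be told apart. These values rest on 37241 to 44942 counts per library. FTL was 1 of 10 genes past the threshold, where the share of all genes was 1.36%, and nothing is read from that count.

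FTL lies on chromosome 19 and its transcript has a GC content of 56.3%. Genes of high GC content were shifted in knockout replicates 1 and 2 but not in 3. Genes of this chromosome were shifted in the fold change between the groups, which was not split by library. After removal of each library's GC trend, FTL stood at 1545, 1454 and 1486 CPM in knockout and 1604, 1661 and 1652 CPM in wildtype replicates 1, 2 and 3. The groups still did not overlap, and the log2 fold change became -0.13 (SE 0.0222). With knockout replicate 3 alone, the library without the GC shift, it was -0.14. Among 63 other tested genes within 1 Mb of FTL, 53 had a negative fold change, with a median of -0.12 and of -0.042 after GC correction. For all 981 tested genes of chromosome 19 these medians were -0.0948 and -0.0365, and for all genes tested 0.00191 and 0.00117. The part of this regional shift in the FTL value was not tested.

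**Figure D1:**
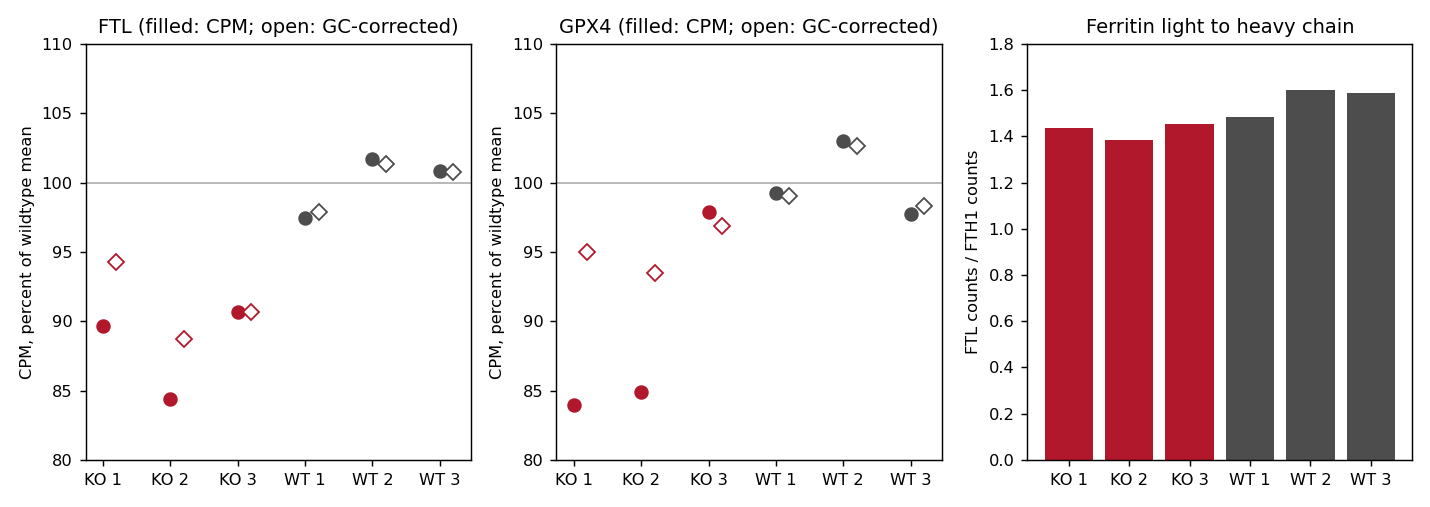
FTL and GPX4 in each library as a percentage of the wildtype mean, before (filled) and after (open) GC correction, with axes that start at 80%, and the ratio of FTL counts to FTH1 counts in each library (bars from 0). FTL stayed lower in each of the 3 knockout libraries after correction, while GPX4 of knockout replicate 3 was at the wildtype level before it.

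The difference in ferritin heavy chain mRNA was smaller and did not pass the test. FTH1 (chromosome 11, 61959718 to 61967634, minus strand), whose protein oxidises iron for storage, had 1043, 1018 and 1042 CPM in knockout and 1096, 1060 and 1061 CPM in wildtype replicates 1, 2 and 3. The groups did not overlap. Knockout libraries averaged 96.5% of wildtype, a log2 difference of -0.052 (SE 0.0247) with an edgeR adjusted p of 0.298. The ratio of FTL counts to FTH1 counts, which needs no scaling between libraries, was 1.435, 1.383 and 1.452 in knockout and 1.485, 1.601 and 1.586 in wildtype replicates 1, 2 and 3. All knockout ratios lay below all wildtype ratios, with means of 1.424 ± 0.0359 and 1.557 ± 0.0634 (SD, n = 3 each) and a log2 difference of -0.13. Because FTL was chosen for its fall, this ratio is a description with no test.

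Both ferritin genes have many processed pseudogenes, and fragments that map to several places were not counted. The 16 FTL pseudogenes in the table held 40 to 47 counts in all in each knockout library and 34 to 43 in each wildtype library, at most 0.124% of FTL. FTLP3 carried 237 of these counts over the 6 libraries and FTLP12 carried 6. The 24 FTH1 pseudogenes held 90 to 113 counts in knockout and 61 to 89 in wildtype libraries, at most 0.385% of FTH1, led by FTH1P10 and FTH1P2 with 137 and 99 counts. How many shared fragments were left out is not known, so the levels of FTL and FTH1 are lower limits.

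NCOA4, the receptor that delivers ferritin to the lysosome for iron release, had 144, 142 and 139 CPM in knockout and 140, 137 and 137 CPM in wildtype replicates 1, 2 and 3. These ranges overlapped, with a log2 difference of 0.035 (SE 0.031) and an edgeR adjusted p of 0.629. Its interval ran from 97.9% to 107.2% of wildtype.

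The uptake genes did not pass the test. TFRC, the transferrin receptor, had 628, 612 and 607 CPM in knockout and 630, 636 and 625 CPM in wildtype replicates 1, 2 and 3, with knockout replicate 1 inside the wildtype range. The log2 difference of -0.034 (SE 0.0252) had an edgeR adjusted p of 0.541, and its interval ran from 94.2% to 101.3% of wildtype. After GC correction TFRC stood at 613, 599 and 613 CPM in knockout and 635, 645 and 631 CPM in wildtype libraries, which no longer overlapped, and the edgeR adjusted p was 0.0991 at a log2 difference of -0.067. The GC content of TFRC is 41.5%, and the correction moved its value away from 0, while it moved those of FTL and GPX4 toward 0. SLC11A2, the divalent metal transporter DMT1, had 68.7, 68.3 and 64.6 CPM in knockout and 68.7, 69.0 and 67.3 CPM in wildtype libraries, overlapping values that differed by -0.025 on the log2 scale (SE 0.0393, edgeR adjusted p = 0.802). Its interval ran from 92.8% to 104.1% of wildtype. After GC correction SLC11A2 stood at 67.2, 67.1 and 65.1 CPM in knockout and 69.1, 69.8 and 67.7 CPM in wildtype libraries, which did not overlap, at a log2 difference of -0.053.

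SLC40A1 had the widest fold change of the 10 genes and the lowest level. SLC40A1 encodes ferroportin, the cellular iron exporter, and had 86, 84 and 105 counts in knockout and 66, 51 and 60 counts in wildtype replicates 1, 2 and 3. This was 3.46, 2.66 and 3.63 CPM in knockout, against 2.39, 1.96 and 2.67 CPM in wildtype libraries, with knockout replicate 2 just below wildtype replicate 3. The edgeR log2 difference was 0.47 (SE 0.167) with an adjusted p of 0.16, and the unadjusted interval ran from 108.7% to 176.7% of wildtype. The gene did not pass over all genes tested. At 51 to 105 counts, its coefficient of variation was 15.9% among knockout and 15.3% among wildtype libraries, compared with 3.8% and 2.25% for FTL.

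The iron regulatory proteins and their ligase did not pass the test. ACO1, the cytosolic aconitase that turns into IRP1 when its iron-sulfur cluster is lost, had 87.8, 77.7 and 81.3 CPM in knockout and 82.5, 86.4 and 79.7 CPM in wildtype replicates 1, 2 and 3, overlapping values that differed by -0.013 on the log2 scale (SE 0.0448, edgeR adjusted p = 0.913). IREB2 (IRP2) had 173, 177 and 166 CPM in knockout and 166, 167 and 165 CPM in wildtype libraries, a log2 difference of 0.05 (SE 0.0314) with an edgeR adjusted p of 0.459. Among these 3 wildtype libraries IREB2 had the lowest coefficient of variation of the 10 genes, 0.565%, against 3.22% in knockout. This difference in spread was not tested. After GC correction IREB2 stood at 167, 173 and 168 CPM in knockout and 168, 170 and 167 CPM in wildtype libraries. FBXL5, the iron-sensing ubiquitin ligase subunit that targets IRP2 for degradation, had 48.0, 46.4 and 45.7 CPM in knockout and 42.4, 45.6 and 43.8 CPM in wildtype libraries. Its groups did not overlap, by a margin under 0.1 CPM, and the log2 difference of 0.087 (SE 0.0458) had an edgeR adjusted p of 0.353. After GC correction it was 0.051, and FBXL5 stood at 46.7, 45.4 and 46.1 CPM in knockout and 42.8, 46.3 and 44.2 CPM in wildtype libraries, which overlapped. Groups that did not overlap were seen for FTL, FTH1 and FBXL5, 3 of 10 genes, where the share of all genes tested was 20.5%. FTL and FTH1 were lower without overlap (9.8% of all genes) and FBXL5 was higher (10.7%). After GC correction the genes without overlap were FTL, FTH1, TFRC, SLC11A2 and GPX4, 5 of 10, all lower, where the share of all genes tested was 19.2% in either direction, 9.41% lower and 9.8% higher. FTL is among these genes by choice.

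**Figure D2:**
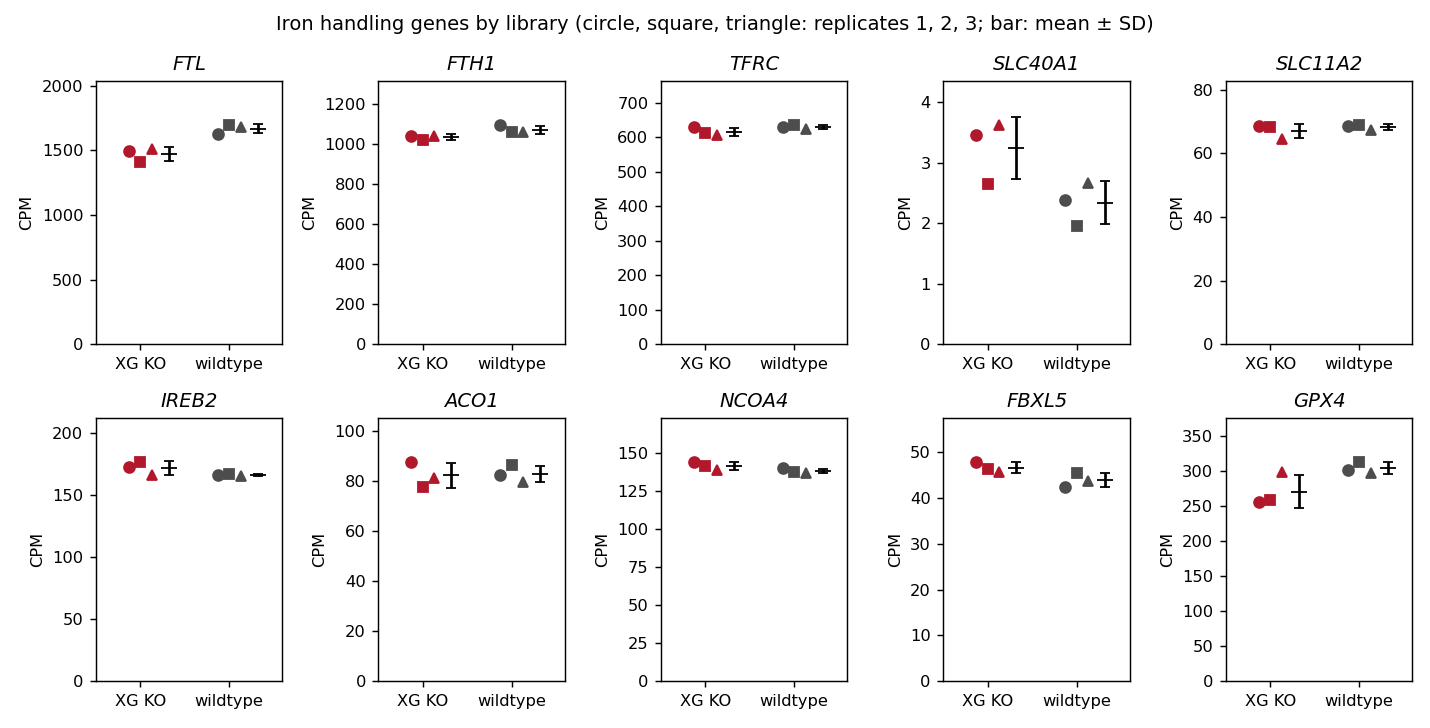
CPM of the 10 genes in each library, XG knockout in red and wildtype in grey, with the mean and SD of 3 libraries beside the points and axes from 0. FTL is lower in all 3 knockout libraries, SLC40A1 lies near 3 CPM with a wide spread, and GPX4 is lower in knockout replicates 1 and 2 but not in 3.

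GPX4 split the knockout libraries. GPX4 encodes the selenoprotein that reduces lipid peroxides and protects cells from ferroptosis, an iron-dependent cell death. Its selenocysteine is read from a TGA codon, shown in capitals with 12 bases on each side (chr19:1105391-1105417, GRCh38, plus strand), since this codon marks it as a selenoprotein among the 10 genes.
GPX4: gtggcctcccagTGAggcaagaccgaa

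GPX4 (chromosome 19, 1103926 to 1106791, plus strand) had 256, 259 and 298 CPM in knockout replicates 1, 2 and 3, against 302, 314 and 298 CPM in wildtype libraries. Knockout replicates 1 and 2 lay below every wildtype library, and knockout replicate 3 lay inside the wildtype range. The difference of -0.17 on the log2 scale (SE 0.044) did not pass, at an edgeR adjusted p of 0.0625. Without knockout replicate 3 it was -0.24 (adjusted p = 2.04e-08), and with that library as the only knockout it was -0.031 (adjusted p = 0.794), with the spread then estimated from wildtype only. The transcript has a GC content of 62.5%. After GC correction GPX4 stood at 279, 274 and 284 CPM in knockout and 291, 301 and 289 CPM in wildtype libraries, without overlap, at a log2 difference of -0.072 (SE 0.0241) and an edgeR adjusted p of 0.115. Among 63 other tested genes within 1 Mb, the median was -0.13, and -0.0353 after correction. The authors' deposited table gives GPX4 a log2 fold change of -0.17 with an adjusted p of 0.237, and DESeq2 on the filtered counts gave -0.17 with an adjusted p of 0.038.

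**Figure D3:**
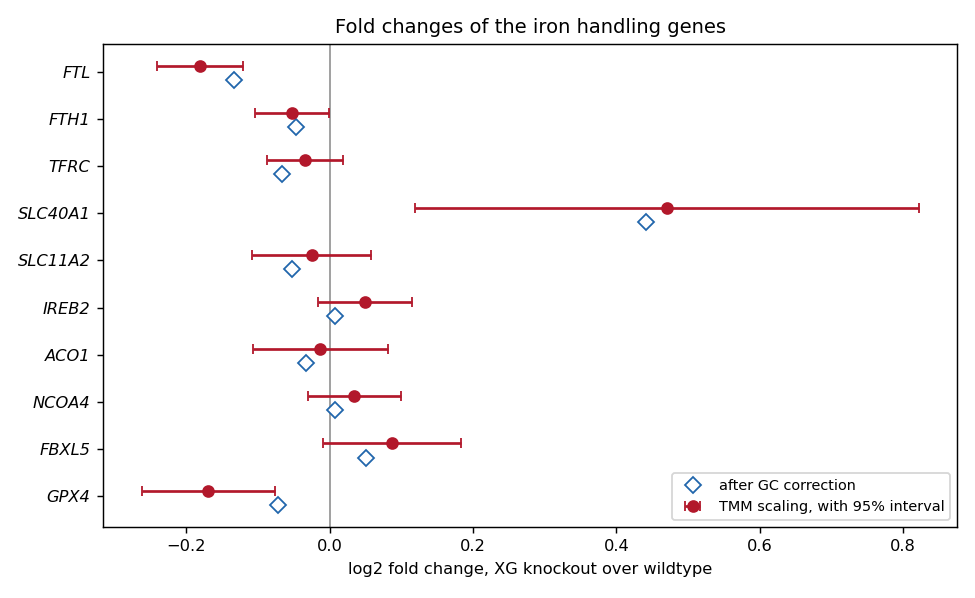
Log2 fold changes of the 10 genes, XG knockout over wildtype, with unadjusted 95% intervals (filled), and the values after GC correction (open). SLC40A1 has the widest interval, and GPX4 moves from -0.17 to -0.072 with the correction.

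Set out by element, the genes with a 5′ match had log2 fold changes of -0.18 (FTL), -0.052 (FTH1) and 0.47 (SLC40A1). Those with a 3′ match had -0.034 (TFRC), -0.025 (SLC11A2) and 0.05 (IREB2), where SLC11A2 and IREB2 needed 1 extra unpaired base. After GC correction the 5′ genes stood at -0.13 (FTL), -0.047 (FTH1) and 0.44 (SLC40A1). The 3′ genes then stood at -0.067 (TFRC), -0.053 (SLC11A2) and 0.0083 (IREB2). The 5′ genes held both the lowest and the highest fold change of the 10. FTL, the lowest, was chosen for its fall. SLC40A1, the highest, rested on 51 to 105 counts per library, overlapped between groups and did not pass the test. No contrast between 5′ and 3′ matches is read from these values. Over all 10 genes the median log2 fold change was -0.0191, with 4 positive and 6 negative, beside 0.00191 for all genes tested. The median absolute value was 0.0508, against 0.0716 for all genes tested.

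Per length of exon, the order of levels was the same in both groups. FTL led, with 1691 ± 64.3 in knockout and 1916 ± 43.1 CPM per kb in wildtype libraries (SD, n = 3 each). FTH1 followed with 516 ± 6.87 in knockout and 535 ± 10.1 CPM per kb in wildtype, then GPX4 with 134 ± 11.8 and 151 ± 4.09, and TFRC with 79.0 ± 1.44 and 80.9 ± 0.687. NCOA4, IREB2, ACO1, FBXL5 and SLC11A2 came next, at means of 34.7, 15.9, 10.9, 9.94 and 6.80 CPM per kb in knockout and 33.9, 15.4, 10.97, 9.35 and 6.91 CPM per kb in wildtype. SLC40A1 was last, at 0.75 in knockout and 0.54 CPM per kb in wildtype. The ranges over 6 libraries did not overlap between any neighbours in this order, although ACO1 and FBXL5 came within 0.1 CPM per kb of each other. The lengths join all exons of a gene, 871 bases for FTL and 2004 for FTH1. The longest FTH1 coding transcript with the element has 1229 bases, so joining lowers the FTH1 level per length. The same holds for SLC11A2 (9888 bases joined, 4348 in the longest coding transcript with a match), IREB2 (10803 and 6354) and TFRC (7794 and 5111). The order therefore holds for joined exon lengths only.

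Among 4542 other protein-coding genes with a mean of at least 50 CPM, those with a pattern close to that of FTL over the 6 libraries included NTMT1 and RBM14. Likeness was the mean absolute difference of log2 CPM centred on each gene's mean, which was 0.0152 for NTMT1 and 0.0173 for RBM14. NTMT1 methylates protein N termini and RBM14 is an RNA-binding coactivator. NTMT1 had 78.5, 74.5 and 81.5 CPM in knockout and 87.7, 88.9 and 89.7 CPM in wildtype replicates 1, 2 and 3, with its lowest value in knockout replicate 2, as for FTL. The transcripts of NTMT1 and RBM14 have GC contents of 60.7% and 59.4%. With GC correction the log2 fold change went from -0.18 to -0.10 for NTMT1, from -0.16 to -0.085 for RBM14 and from -0.18 to -0.13 for FTL. Likeness to FTL was ranked before correction only.

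Beside the 10, the lists held 115 genes, of which 93 were tested. CHAC1, whose rise was known beforehand, was the 1 that passed, where the share of all genes tested was 1.36%. Their median log2 fold change was 0.0074, beside 0.00191 for all genes tested. A gene may stand in several lists.

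No gene passed among 11 tested for iron uptake and reduction, where the median was -0.0184. SLC39A14, the transporter ZIP14, had 141, 139 and 134 CPM in knockout and 129, 132 and 129 CPM in wildtype replicates 1, 2 and 3 (log2 fold change 0.087, edgeR adjusted p = 0.177). MCOLN1, a lysosomal cation channel on chromosome 19, averaged 14.6 ± 1.19 CPM in knockout and 16.8 ± 0.937 CPM in wildtype libraries (SD, n = 3 each, edgeR adjusted p = 0.179). The TF gene of transferrin had at most 1 count in a library. Of 9 tested genes for storage, ferritinophagy and iron chaperones, none beside FTL passed, and the list median with FTL was -0.0285. PCBP1 and PCBP2, poly(C)-binding proteins that carry iron to ferritin, had log2 fold changes of -0.028 and 0.013. Only 3 of 9 export genes were tested, with none called and a median of 0.0266. Beside SLC40A1, ERFE, a hormone that lowers hepcidin, averaged 18.3 ± 0.551 CPM in knockout and 19.8 ± 0.214 CPM in wildtype libraries (edgeR adjusted p = 0.33). HEPH, the ferroxidase that works with ferroportin in gut, had 0 counts in all 6 libraries.

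None of 6 genes of the iron regulatory proteins and the FBXL5 ligase passed, with a median of 0.0274. SKP1, a subunit of that ligase, averaged 192 ± 7.68 CPM in knockout and 184 ± 3.47 CPM in wildtype libraries (edgeR adjusted p = 0.348). None of 19 genes of mitochondrial iron and iron-sulfur assembly passed, with a median of 0.000316. FDXR, ferredoxin reductase, averaged 13.7 ± 0.543 CPM in knockout and 16.0 ± 1.03 CPM in wildtype libraries (edgeR adjusted p = 0.123), and NFU1, an iron-sulfur carrier, had a log2 difference of 0.12 (adjusted p = 0.338). None of 10 cytosolic assembly genes passed, with a median of 0.00233. NUBP2, part of its scaffold complex, had 36.8, 37.5 and 48.1 CPM in knockout and 49.4, 51.7 and 45.7 CPM in wildtype replicates 1, 2 and 3 (log2 fold change -0.26, edgeR adjusted p = 0.096). As for GPX4, knockout replicate 3 of NUBP2 lay inside the wildtype range, and NUBP2 passed once the GC trend was removed (-0.18 on the log2 scale, adjusted p = 0.0436). CIAO3, another assembly factor, averaged 24.1 ± 2.39 CPM in knockout and 27.8 ± 0.392 CPM in wildtype libraries (edgeR adjusted p = 0.116).

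None of 19 heme genes passed, with a median of 0.00921. ALAS1, the first enzyme of heme synthesis outside red cells, averaged 38.0 ± 0.27 CPM in knockout and 36.4 ± 0.53 CPM in wildtype libraries (edgeR adjusted p = 0.552), and BLVRB, a biliverdin reductase, 29.6 ± 2.30 and 27.8 ± 0.238 CPM (adjusted p = 0.469). Among the 4 tested transcripts with another described iron-responsive element none passed, with a median of -0.00346. CDC14A, a phosphatase, had a log2 fold change of 0.076 (edgeR adjusted p = 0.707).

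Of 19 genes of ferroptosis defence and lipid peroxidation, 1 was called higher and none lower, with a median of 0.0378. Over all genes tested 0.444% were called higher and 0.915% lower. After GC correction 2 genes of this list were called higher and none lower, beside 157 higher and 182 lower of all 14425 genes tested. CHAC1, which degrades glutathione, had 16.1, 18.9 and 18.4 CPM in knockout and 13.03, 13.5 and 13.2 CPM in wildtype replicates 1, 2 and 3 (log2 fold change 0.43, SE 0.073, edgeR adjusted p = 0.00701). Its rise was known from earlier results of these data when the list was made. The adjusted p and the call of CHAC1 are therefore no independent support, and nothing is read from the number of calls in this list. It lost its call without knockout replicate 2 (adjusted p = 0.0584) and without wildtype replicate 1 (0.0944) or 3 (0.0691). Of 4 tested glutathione peroxidases none passed, with a median of -0.108, and of -0.0503 after GC correction. GPX1, the cytosolic selenoprotein, had 132, 132 and 165 CPM in knockout and 160, 164 and 157 CPM in wildtype replicates 1, 2 and 3 (log2 fold change -0.16, edgeR adjusted p = 0.172), at a GC content of 64.2%. Its knockout replicates 1 and 2 lay below every wildtype library, as for GPX4, but knockout replicate 3 lay just above them all. After GC correction the log2 difference of GPX1 was -0.055.

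**Figure D4:**
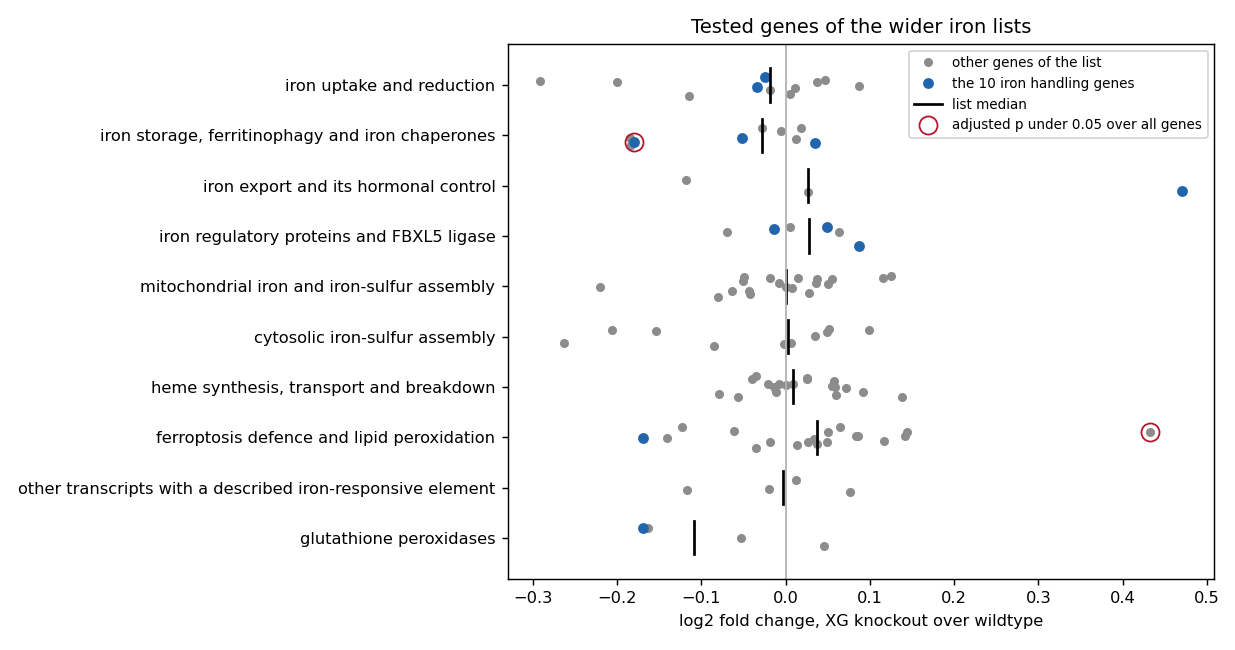
Log2 fold changes, XG knockout over wildtype, of tested genes in 10 wider iron lists, with the 10 iron handling genes in blue, list medians as black bars and genes past an adjusted p of 0.05 circled. FTL and CHAC1, whose changes were known beforehand, are circled.

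**Figure D5:**
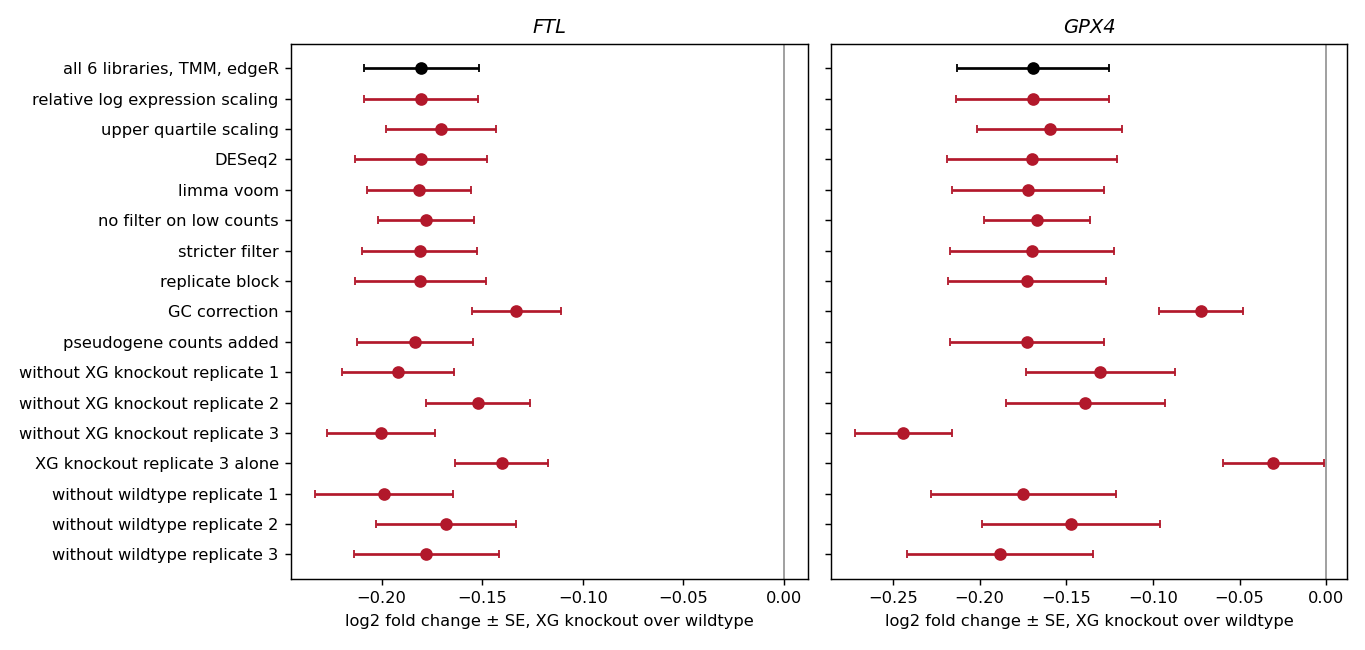
Log2 fold changes with SE of FTL and GPX4, XG knockout over wildtype, under each processing setting. FTL lies between -0.20 and -0.13, and GPX4 between -0.24 and -0.031.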

How the data were processed

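Per the labels' protocols, a TruSeq Stranded mRNA kit was used. Per the submitters' processing notes, reads were aligned with STAR 2.7.6a to GRCh38. The deposited counts are whole numbers of fragments for each gene, from featureCounts 2.0.1 on GENCODE 33 exons with paired-end, reverse-strand settings and no option for multi-mapping fragments, per the file headers. The authors also deposited a table with a mean signal of scaled counts, log2 fold changes, a test score and p-values, and the submitters' processing notes name DESeq2 1.38.3. Its direction is not stated, and 14304 of 14425 tested genes had the sign of knockout over wildtype.

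Genes were kept by filterByExpr (minimum count 10, total 15), scaled by TMM and tested with edgeR 4.0.16 (quasi-likelihood, two-sided, Benjamini-Hochberg over all tested genes, threshold 0.05) in R 4.3.3. Intervals of 95% come from the same fit and are not adjusted. The GC correction removed a lowess trend (span 0.5) of each library on the GC content of the longest GENCODE 29 transcript, known for 99.54% of tested genes. Alternatives were other scalings, DESeq2 1.42.0, limma 3.58.1 voom, other filters, the replicate number as a block, libraries left out and pseudogene counts added. In simulated data for this comparison (14425 genes), 16% of 50 genes changed 1.1-fold and 52% of 50 changed 1.2-fold were recovered. Of 121 calls, 12 were false. These data drew each gene independently and held no GC shift, unlike knockout replicates 1 and 2. With a simulated GC trend in the knockout libraries and no changed gene, 18 genes were called, and 1 after GC correction. That trend was the same in every knockout library and its size was not fitted to the data, where knockout replicate 3 held no shift. These counts therefore do not show how many calls the GC shift of the data made, or how well the correction removed it. Genes and lists were chosen with earlier results of these data known. The text names the 10 genes, XG, called genes of each list (up to 4 by p) or otherwise the 2 with the smallest p, the most counted ferritin pseudogenes and the 3 genes most like FTL. PCBP1, PCBP2, HEPH, TF and the markers named at 0 or called were named after their values were seen. Some genes that this rule names are not reported here.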

Additional observations from a re-analysis of the deposited data

How the results depend on the processing

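The FTL log2 fold change kept its sign in all 16 alternatives, from -0.2 to -0.133. It moved by more than the replicate spread in 1, the GC correction (-0.133). FTL was chosen for its fall in these same libraries, so neither its kept sign nor its calls below are independent support. The FTL to FTH1 log2 difference ran from -0.163 to -0.0868 over 9 alternatives. The number of the 10 genes past the threshold, 1 with all libraries, was 2 with DESeq2, with no filter on low counts and without knockout replicate 3, where GPX4 joined FTL. Over all genes these settings called 200, 647 and 1851, in that order. With 1 library left out the number of the 10 genes ranged from 0 to 2. It was 0 without wildtype replicate 2 or 3, where 26 and 18 of all genes were called. Nothing is read from these numbers. Over all genes, 196 calls became 339 with GC correction, 125 with knockout replicate 3 alone, 647 with no filter and 33 at an adjusted p of 0.01, and ranged from 18 to 1851 with 1 library left out. In the wider lists, 1 call became 3 with GC correction and 6 with no filter. With 1 library left out the calls of these lists ranged from 0 to 13, with 13 without knockout replicate 3, where 1851 of all genes were called. The cause was not tested.

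Of 9 genes beside FTL, SLC11A2 changed sign without knockout replicate 3 (range with 1 library left out -0.0405 to 0.0023), IREB2 with knockout replicate 3 alone (-4.9e-05) and ACO1 without knockout replicate 2 (0.024) or wildtype replicate 2 (0.018), within a range of -0.0607 to 0.024. GPX1 changed sign with knockout replicate 3 alone (0.042). With the replicate block 37 genes passed, and the log2 fold change of FTL was -0.18. Deviations of same-numbered libraries from their group means correlated at -0.0563, -0.0593 and -0.0643. Such values cannot show whether same-numbered libraries were prepared together, which the labels do not say. Depth limited SLC40A1 most, at 51 to 105 counts per library.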
